A study of Mus musculus with 12 samples.

Results

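The genes described here were Trp53, which encodes the transcription factor p53, and 9 of its direct target genes, Mdm2, Ccng1, Cdkn1a, Btg2, Plk2, Bbc3, Pidd1, Phlda3 and Zmat3. They are 10 of the 34245 genes of the expression table, taken as the rows with these symbols. The members were chosen by measured values, namely their response to p38-MAPK inhibition in these same libraries, so the differences between inhibited and control embryos are given as a description, with no p-value, and counts of members past a threshold are printed beside those of all genes with nothing read from them. p53 binds DNA as a tetramer at paired decamers and raises transcription of genes that halt the cell cycle, trigger apoptosis or repair DNA. Its protein is kept scarce by Mdm2, itself a p53 target, so the pathway carries its own brake, and p53 activity is set mainly by protein stability rather than by the amount of Trp53 mRNA. In the preimplantation embryo p53 is known for the response to DNA damage and culture stress.

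Polyadenylated RNA was sequenced from 12 libraries, each a pool of 30 whole mouse blastocysts. Embryos came from F1 hybrid (C57Bl6 x CBA/W) females mated with F1 males, were collected at the 2-cell stage at E1.5, and were cultured in KSOM with amino acids. From E3.5 they were moved to medium with the vehicle DMSO (control) or with 20 µM SB220025, an inhibitor that blocks p38-MAPK (p38-MAPKi), with collection after 4, 7 or 10 h, with 2 pools in each of the 6 groups. No group carried a genetic change, 1 inhibitor at 1 dose stood for loss of p38-MAPK activity, and each value averages over the trophectoderm, epiblast and primitive endoderm of 30 embryos. The p-values below therefore concern differences between pools, and not between embryos. In the fits of p38-MAPKi at E3.5 + 4 h and of controls at 7 against 4 h, the spread was taken from a trend over all genes. A gene's own pools did not set its error there.

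The libraries held 11242313 to 24457312 reads, the lowest in p38-MAPKi library 1 at E3.5 + 7 h. Replicates correlated over expressed genes with coefficients from 0.9717 to 0.9921. Control library 1 at E3.5 + 4 h stood apart in Gm42418, a gene model that overlaps ribosomal RNA sequence, at 25350 RPKM (reads scaled by transcript length and library size) against 3768 RPKM in its replicate. Of 8 trophectoderm and 8 epiblast markers, 7 each reached 1 RPKM in every library, and of 8 primitive endoderm markers 5 did, with Foxa2 at no more than 0.0338 RPKM and Sox7 at no more than 0.436 RPKM. The summed primitive endoderm markers were at 118 to 124 RPKM in p38-MAPKi embryos and 176 to 190 RPKM in controls at E3.5 + 7 h, where Dab2 was at 23.96 and 28.3 RPKM against 57.5 and 47.3 RPKM (log2 fold change -1.003 ± 0.19, adjusted p = 0.0461). The primitive endoderm sums overlapped at E3.5 + 4 h, at 130.7 to 175.3 against 143.5 to 172.4 RPKM. They also overlapped at E3.5 + 10 h, at 181.4 to 186.6 against 181.3 to 184.8 RPKM. The trophectoderm markers summed to 1807 to 2643 RPKM and the epiblast markers to 550.5 to 701 RPKM over all libraries, and the trophectoderm marker Id2 was lower with p38-MAPKi at E3.5 + 4 h, at 39.2 and 40.7 RPKM against 72.0 and 72.4 RPKM (-0.86 ± 0.20, adjusted p = 0.00485). The trophectoderm sums of that time overlapped, at 1950 to 1995 RPKM with p38-MAPKi against 1807 to 1961 RPKM. The epiblast sums were apart at E3.5 + 10 h alone, at 550.5 to 575.3 RPKM with p38-MAPKi against 610.1 to 611.3 RPKM. The 7 cumulus and granulosa cell markers summed to 0.186 to 0.443 RPKM in the controls and 0.781 to 0.97 RPKM in p38-MAPKi embryos at E3.5 + 4 h, with Ptx3, Has2 and Tnfaip6 at no more than 0.0468 RPKM in any library. The 8 blood and oviduct markers summed to 0.805 to 1.93 RPKM over all libraries. Their sums overlapped at E3.5 + 4 h. With p38-MAPKi they were higher at E3.5 + 7 h, at 1.41 to 1.75 against 0.979 to 1.16 RPKM, and at E3.5 + 10 h, at 1.04 to 1.07 against 0.8855 to 0.991 RPKM. The part of these markers in the results was not tested. No RNA was spiked in, so every level is a share of its library, and in pooled embryos fewer cells of a type and less RNA per cell cannot be told apart.

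The p53 motif was looked for only near the transcription starts of these genes, and sites elsewhere in or around them were not examined. RefSeq windows from 250 bases before to 50 bases after the start, on GRCm38.p6, existed for 9 of the 10 genes, and none was found for Zmat3. They were searched for the canonical consensus decamer of p53 (10 bases), as back-to-back pairs of 20 bases with the conserved C and G of each decamer kept. The consensus is its own reverse complement, so 1 strand covers both. A pair with at most 3 mismatches occurred in 4 of the 9 genes, Cdkn1a, Ccng1, Bbc3 and Trp53, and in 1.63% of all 27025 genes with a window (1.38% of all 32851 windows). With at most 1 mismatch it occurred in Cdkn1a and Ccng1 and in 0.0814% of those genes (0.067% of windows). A single decamer without mismatch was present in Cdkn1a, Mdm2, Ccng1 and Trp53 and in 9.55% of those genes (8.36% of windows). These 4 matches are printed in the direction of transcription with the pair in capitals and the neighbouring 20 bases on each side in lower case.
Cdkn1a: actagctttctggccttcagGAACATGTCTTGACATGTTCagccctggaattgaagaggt
Ccng1: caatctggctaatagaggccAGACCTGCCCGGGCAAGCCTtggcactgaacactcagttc
Bbc3: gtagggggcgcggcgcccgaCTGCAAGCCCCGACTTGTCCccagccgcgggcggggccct
Trp53: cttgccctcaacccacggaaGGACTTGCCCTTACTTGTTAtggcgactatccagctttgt
The printed stretch of Cdkn1a lies at chr17:29090908-29090967 on the plus strand, in the window of its upstream start, with the pair at positions -51 to -32 from that start and 1 mismatch. In the window of its downstream start (chr17:29093519-29093818) the best pair had 7 mismatches. That of Ccng1 lies at chr11:40755442-40755501 on the minus strand, with the pair at -195 to -176 and 1 mismatch. For Bbc3 the stretch is chr7:16309466-16309525 on the plus strand, with the pair at -97 to -78 and 3 mismatches, and for Trp53 it is chr11:69580264-69580323 on the plus strand, with the pair at -75 to -56 and 3 mismatches. In the other windows of Bbc3 the best pairs had 7 and 8 mismatches. The 50 bases after the start were found in a GENCODE transcript of the gene for Cdkn1a, Ccng1 and Trp53, and not for Bbc3. None of the 4 printed stretches meets an exon of the GENCODE annotation. That of Bbc3, which belongs to the first of its 3 windows, lies in an intron of Bbc3, and the other 3 lie upstream of their own gene. Whether they lie in an intron of another gene was not examined. A match describes letters in the window, and binding was not measured in these embryos.

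All 10 genes were well read, with 343 to 12377 reads per gene and library, and all passed the filter of at least 1 RPKM in 2 libraries in every comparison. In E3.5 + 4 h control embryos the order of levels was Ccng1 (98.3 RPKM), Cdkn1a (66.5 RPKM), Phlda3 (50.4 RPKM), Mdm2 (20.4 RPKM), Trp53 (18.7 RPKM), Btg2 (13.4 RPKM), Bbc3 (10.5 RPKM), Zmat3 (6.52 RPKM), Plk2 (6.29 RPKM) and Pidd1 (5.57 RPKM). Mdm2 and Trp53 overlapped in their 2 libraries, as did Zmat3 with Plk2 and Plk2 with Pidd1, and the other neighbours in this order did not overlap. Among the 10565 genes with at least 1 RPKM in that group, Ccng1 was at percentile 95.6 and Pidd1 at percentile 38.8. In p38-MAPKi embryos Phlda3 stood above Cdkn1a at all 3 times, as the group means of 101, 153 and 95.7 RPKM for Phlda3 against 96.4, 112 and 86.4 RPKM for Cdkn1a show. In control embryos the order was the opposite, although the libraries of the 2 genes overlapped at E3.5 + 7 h.

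**Figure D1:**
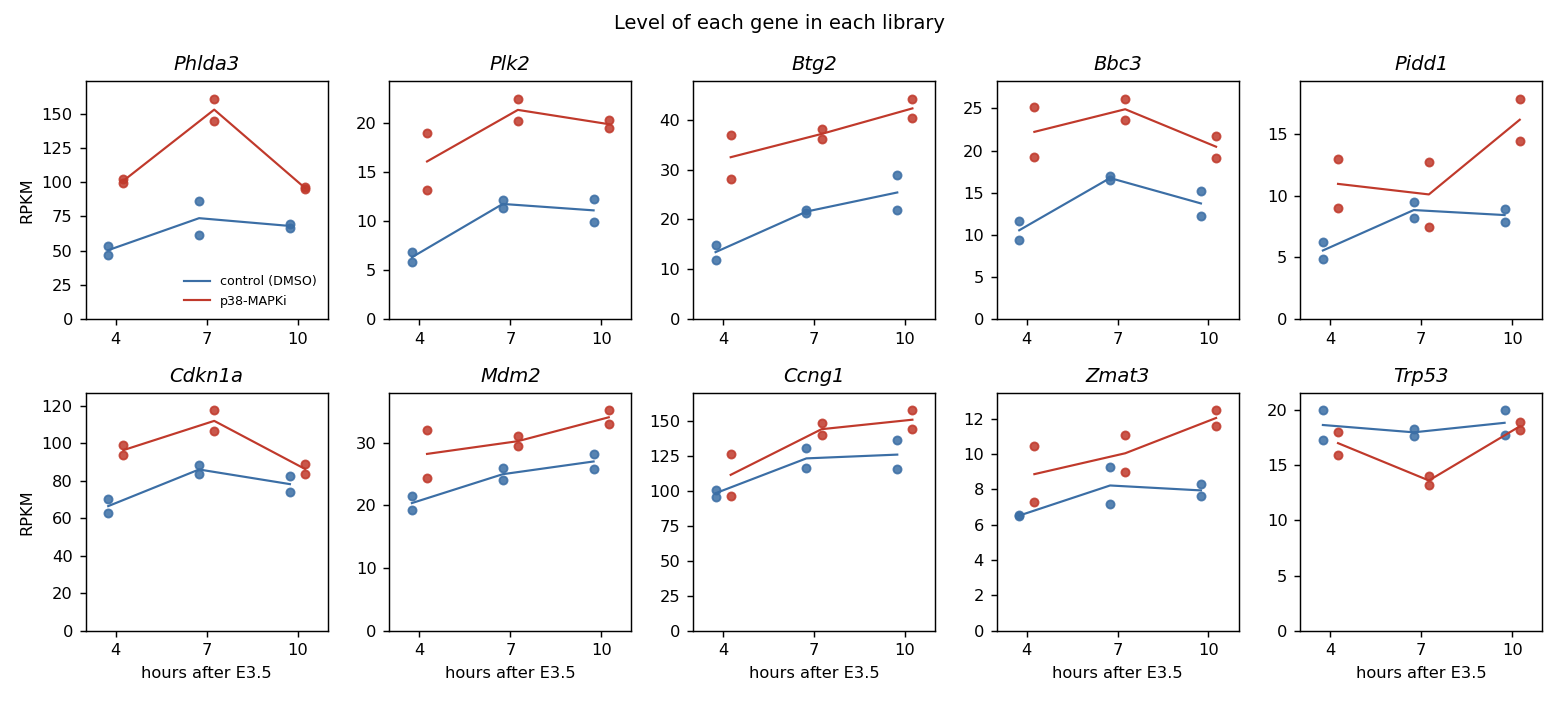
Level in RPKM (linear axes from 0) of each of the 10 genes in each of the 12 libraries against hours after E3.5, with control (DMSO) in blue and p38-MAPKi in red. Points are libraries and lines join the means of 2, and for 8 target genes both red points lie above both blue points at E3.5 + 4 h, whereas Trp53 lies between 13.2 and 20.0 RPKM throughout.

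Trp53 (chr11:69580359-69591873, plus strand, GRCm38), the source of the pathway, had mRNA levels between 13.2 and 20.0 RPKM in all 12 libraries. Control libraries held 17.3 and 20.0 RPKM at E3.5 + 4 h, 17.7 and 18.3 RPKM at E3.5 + 7 h, and 20.0 and 17.7 RPKM at E3.5 + 10 h. Libraries of inhibited embryos held 18.0 and 16.0, then 13.2 and 14.0, then 18.9 and 18.2 RPKM. The groups overlapped at E3.5 + 4 h and + 10 h, and at E3.5 + 7 h both p38-MAPKi libraries lay below both controls, as did those of 38.7% of all genes tested at that time. The log2 fold changes of p38-MAPKi over control were -0.13 ± 0.21 (limma standard error), -0.40 ± 0.18 and -0.02 ± 0.09 at the 3 times, and 25.2%, 30.9% and 50% of genes tested had a lower one.

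Of the genes that act back on p53, Mdm2 (chr10:117688875-117710758, minus strand) encodes the ubiquitin ligase that marks p53 for degradation. Its control libraries held 19.3 and 21.4 RPKM, then 24.0 and 25.9, then 28.2 and 25.9 RPKM at 4, 7 and 10 h. The p38-MAPKi libraries held 32.0 and 24.4, then 29.5 and 31.0, then 32.9 and 35.2 RPKM. The 2 groups did not overlap at any of the 3 times, with p38-MAPKi higher by 0.46 ± 0.21, 0.28 ± 0.17 and 0.33 ± 0.08 on the log2 scale. Ccng1 (chr11:40748552-40755311, minus strand) encodes cyclin G1, which brings a phosphatase to Mdm2, and had the highest mean of the 10 in every group except E3.5 + 7 h p38-MAPKi, where the mean of Phlda3 was above it and their libraries overlapped. Ccng1 also overlapped Phlda3 and Cdkn1a in the p38-MAPKi libraries of E3.5 + 4 h. Its control libraries held 95.6 and 101 RPKM, then 130 and 116, then 136 and 116 RPKM, and its p38-MAPKi libraries held 127 and 96.2, then 140 and 148, then 158 and 144 RPKM. The groups overlapped at E3.5 + 4 h and were apart later, with log2 fold changes of 0.17 ± 0.20, 0.23 ± 0.17 and 0.26 ± 0.09.

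Among the targets that restrain the cell cycle, Cdkn1a (chr17:29090979-29100722, plus strand) encodes p21, an inhibitor of cyclin-dependent kinases. A gene model of unknown type on the opposite strand, AC167363.2, overlaps it, and whether the reads were counted by strand was not given in the sources used here. Cdkn1a was at 62.6 and 70.4 RPKM, then 88.5 and 83.7, then 82.6 and 74.0 RPKM in controls, and at 93.9 and 98.9, then 118 and 106, then 83.7 and 89.0 RPKM in p38-MAPKi embryos. The groups were apart at all 3 times, by least at E3.5 + 10 h, and the log2 fold changes were 0.54 ± 0.20, 0.38 ± 0.17 and 0.14 ± 0.08. Btg2 (chr1:134075170-134079120, minus strand), an antiproliferative protein that promotes mRNA deadenylation, was at 11.96 and 14.9 RPKM, then 21.2 and 21.9, then 28.9 and 21.98 RPKM in controls. With p38-MAPKi it was at 36.9 and 28.1, then 38.1 and 36.2, then 44.2 and 40.3 RPKM, again with no overlap at any time, and log2 fold changes were 1.27 ± 0.21, 0.78 ± 0.17 and 0.75 ± 0.13. Plk2 (chr13:110395046-110400844, plus strand), a polo-like kinase of centriole duplication, was at 5.80 and 6.79 RPKM, then 11.3 and 12.1, then 12.2 and 9.90 RPKM in controls. Its p38-MAPKi libraries stood higher at 18.96 and 13.1, then 20.1 and 22.4, then 19.4 and 20.2 RPKM, with log2 fold changes of 1.33 ± 0.22, 0.86 ± 0.18 and 0.85 ± 0.11. The value of 1.33 for Plk2 at E3.5 + 4 h was the largest of the 30 fold changes of the 10 genes over the 3 times.

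Of the targets linked to cell death, Bbc3 (chr7:16308393-16318205, plus strand) encodes PUMA, a BH3-only protein that opens the mitochondrial route to apoptosis. Control libraries held 9.45 and 11.7 RPKM, then 16.5 and 17.0, then 15.2 and 12.2 RPKM, and p38-MAPKi libraries held 25.2 and 19.2, then 23.7 and 26.2, then 19.2 and 21.8 RPKM. Bbc3 was apart at every time, with log2 fold changes of 1.07 ± 0.21, 0.57 ± 0.18 and 0.58 ± 0.12. Pidd1 (chr7:141438113-141444025, minus strand) encodes the scaffold of the PIDDosome, a platform for caspase activation, and was at 4.84 and 6.29 RPKM, then 8.22 and 9.47, then 8.97 and 7.91 RPKM in controls. In p38-MAPKi embryos it was at 12.9 and 8.98, then 7.50 and 12.7, then 17.9 and 14.5 RPKM, so that the groups overlapped at E3.5 + 7 h but not before or after. Its log2 fold changes were 0.97 ± 0.23, 0.15 ± 0.27 and 0.93 ± 0.13, and without p38-MAPKi library 2 the value at E3.5 + 7 h was -0.23. Phlda3 (chr1:135766119-135769136, plus strand) encodes a small PH-domain protein that holds back the survival kinase Akt. Its controls were at 47.0 and 53.7 RPKM, then 86.1 and 61.3, then 69.1 and 66.9 RPKM, against 102 and 99.6, then 161 and 145, then 94.8 and 96.6 RPKM with p38-MAPKi. No libraries overlapped, and log2 fold changes of 1.01 ± 0.20, 1.07 ± 0.20 and 0.49 ± 0.06 were obtained.

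Zmat3 (chr3:32334792-32366014, minus strand), a zinc finger protein that binds RNA, had the longest merged exons of the 10 genes (11435 bases) and low levels. Its controls were at 6.55 and 6.49 RPKM, then 7.16 and 9.29, then 8.29 and 7.60 RPKM, and its p38-MAPKi libraries at 10.4 and 7.29, then 9.0 and 11.1, then 12.5 and 11.6 RPKM. The groups overlapped at E3.5 + 7 h alone, and log2 fold changes were 0.42 ± 0.23, 0.29 ± 0.22 and 0.60 ± 0.09.

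**Figure D2:**
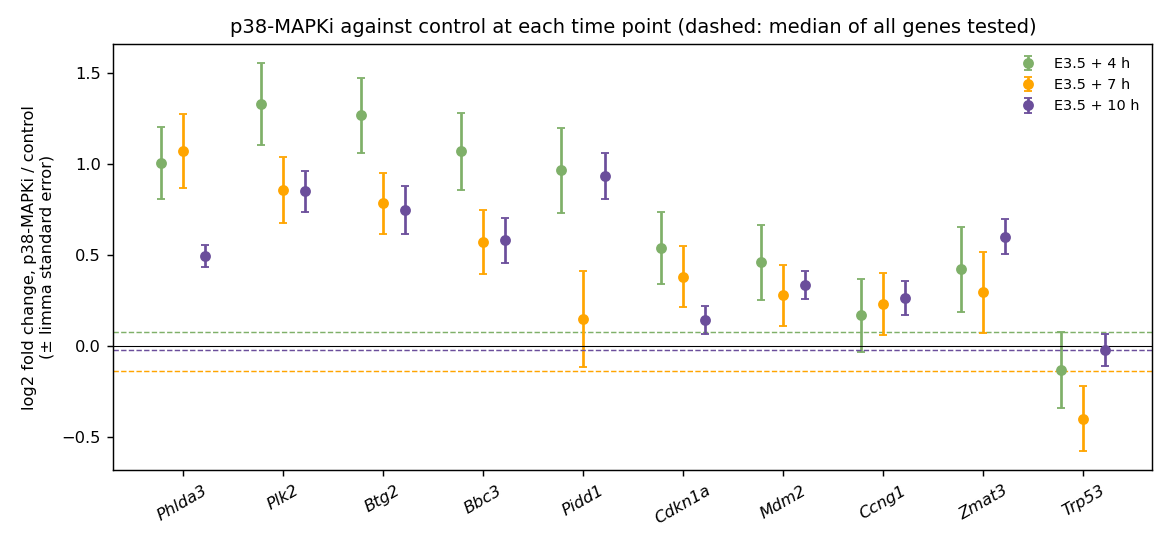
Log2 fold change of p38-MAPKi over control for each gene at E3.5 + 4 h (green), + 7 h (orange) and + 10 h (purple), with bars for the limma standard error from 2 against 2 libraries and dashed lines for the median of all genes tested. The 9 target genes lie above these medians of 0.07, -0.14 and -0.02 at each time, from 0.14 to 1.33, and Trp53 lies below or on them.

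Counted over the members, 5 of the 10 genes passed the threshold of an adjusted p of 0.05 at E3.5 + 4 h (Phlda3, Plk2, Btg2, Bbc3 and Pidd1), 2 at E3.5 + 7 h (Phlda3 and Plk2) and 3 at E3.5 + 10 h (Phlda3, Plk2 and Pidd1), each time as higher in p38-MAPKi embryos. Over all genes tested, 0.621%, 0.932% and 0.338% were called higher and 0.288%, 1.2% and 0.465% lower at the 3 times. Both p38-MAPKi libraries were above both controls for 8, 7 and 9 of the 10 genes, against 26.8%, 23.0% and 22.6% of all genes. Since these comparisons chose the members, nothing is read from either count. At E3.5 + 4 h the count was 0 without limma's variance trend, after median centring or quantile normalization, without a filter, with 12 libraries in one fit, and with the trend on transcript length removed. At E3.5 + 7 h it was 0 without the variance trend, after either scaling and with length correction, and at E3.5 + 10 h it was 0 without the variance trend, without a filter and with 12 libraries in one fit. The counts also depended on single control libraries, since without control library 1 at E3.5 + 4 h the count went from 5 to 0, and without control library 1 or 2 at E3.5 + 7 h it went from 2 to 1 or 0. Without control library 1 at E3.5 + 10 h it went from 3 to 6. The log2 fold change of 7 targets (all but Ccng1 and Pidd1) was above 0 under every setting tried at every time, a direction that the choice of members favours, and the lowest value for Ccng1 was -0.03.

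The inhibitor's effect was also compared between time points, with the same restriction. The difference of the log2 fold changes at E3.5 + 10 h and + 4 h was -0.51 ± 0.16 for Phlda3, -0.52 ± 0.25 for Btg2, -0.48 ± 0.26 for Plk2, -0.49 ± 0.25 for Bbc3 and -0.39 ± 0.17 for Cdkn1a. It was -0.03 ± 0.29 for Pidd1, -0.12 ± 0.21 for Mdm2, 0.10 ± 0.21 for Ccng1, 0.18 ± 0.25 for Zmat3 and 0.11 ± 0.19 for Trp53. None of the 10 was among the genes called by limma for a difference of effects at 7 against 4 h, 10 against 7 h or 10 against 4 h, where 0.00884%, 0.00877% and 0.0% of all genes were called. At an unadjusted p under 0.05 were 0, 3 and 2 of the 10. Of all genes, 1.99%, 15.9% and 1.99% were higher and 4.84%, 10.4% and 7.87% lower at that p. The medians over all genes were -0.215, 0.145 and -0.0763.

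The control embryos alone show the course of these genes between E3.5 + 4 h and + 10 h. The control libraries also entered the comparisons that chose the members, so that low values at E3.5 + 4 h favour both the choice of a gene and a later control level above it, and the control course is therefore given as a description with no p-value. From E3.5 + 4 h to + 7 h the log2 fold change was 0.90 ± 0.20 for Plk2, 0.69 ± 0.19 for Btg2, 0.68 ± 0.21 for Pidd1, 0.67 ± 0.19 for Bbc3 and 0.53 ± 0.19 for Phlda3. Cdkn1a, Ccng1, Zmat3 and Mdm2 gave values between 0.29 and 0.37, and Trp53 gave -0.05 ± 0.19, beside a median of 0.11 for all genes. The libraries of the 2 times did not overlap for any of the 9 targets, with the later ones higher, and did for Trp53. Plk2 and Btg2 were the 2 of the 10 genes past the threshold, where 0.288% of all genes were called higher, and both later libraries were above both earlier ones for 9 of the 10, against 25.3% of all genes, and nothing is read from these counts. In this fit and in that of p38-MAPKi at E3.5 + 4 h limma gave every gene the variance of the trend on expression, so that a gene's own pools did not set its error. Past the threshold were 0 of the 10 genes without that trend, after median centring or quantile normalization, without a filter, with 12 libraries in one fit, with the replicate block and with length correction. Leaving out control library 1 or 2 at E3.5 + 4 h or library 2 at E3.5 + 7 h also left 0, and without library 1 at E3.5 + 7 h 1 was left.

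Between E3.5 + 7 h and + 10 h the log2 fold changes of the controls ran from -0.30 ± 0.14 for Bbc3 to 0.22 ± 0.15 for Btg2. None of the 10 genes was called by limma, where 0.0552% of all genes were called higher. None had an unadjusted p under 0.05, against 2.19% of all genes higher and 1.6% lower at that p. Both later libraries were above both earlier ones for 1 of the 10 genes (Btg2), against 18.3% of all genes, and below them for 2 (Bbc3 and Cdkn1a), against 12.4% of all genes. From E3.5 + 4 h to + 10 h the log2 fold change was 0.91 ± 0.16 for Btg2 and 0.81 ± 0.16 for Plk2. All 10 values were above 0, Trp53 being lowest at 0.02 ± 0.13, beside a median of 0.14 for all genes, of which 75.7% were above 0, and both later libraries were above both earlier ones for 9 genes against 42.3% of all genes. Past the threshold were 1 of the 10 genes (Btg2) and, as higher, 0.434% of all genes. The count was 0 without the variance trend, after median centring or quantile normalization, without a filter, with 12 libraries in one fit and with length correction. It was 4 with a filter of 10 RPKM or with the replicate block, where the calls over all genes went from 51 to 276 and 536. Without control library 1 at E3.5 + 4 h or library 1 at E3.5 + 10 h it was 0, without control library 2 at E3.5 + 4 h 5, and without library 2 at E3.5 + 10 h 2.

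Set side by side, the levels of several targets in E3.5 + 4 h p38-MAPKi embryos were near or above those that control embryos had at E3.5 + 7 h. For Plk2 the means were 16.0 ± 4.13 (SD, n = 2) and 11.7 ± 0.553 RPKM, for Btg2 32.5 ± 6.24 and 21.6 ± 0.515 RPKM, and for Phlda3 101 ± 1.99 and 73.7 ± 17.6 RPKM. For Mdm2 they were 28.2 ± 5.37 and 24.98 ± 1.32 RPKM and for Ccng1 111 ± 21.5 and 123 ± 10.2 RPKM, with libraries that overlapped. For Bbc3 they were 22.2 ± 4.24 and 16.7 ± 0.349 RPKM and for Cdkn1a 96.4 ± 3.57 and 86.1 ± 3.44 RPKM. Pidd1, at 10.96 ± 2.81 and 8.84 ± 0.88 RPKM, and Zmat3, at 8.87 ± 2.23 and 8.22 ± 1.51 RPKM, had libraries that overlapped. The choice of members favours high p38-MAPKi values at E3.5 + 4 h, so these levels are a description. Averaged over the 9 targets after centring each gene on its mean over the 12 libraries, the log2 level was -0.75 and -0.55 in the controls and 0.32 and -0.02 with p38-MAPKi at E3.5 + 4 h. It was -0.13 and -0.11 against 0.33 and 0.46 at E3.5 + 7 h, and -0.06 and -0.26 against 0.40 and 0.38 at E3.5 + 10 h. The 2 p38-MAPKi pools of E3.5 + 4 h were thus the most unlike of any pair, the first being higher.

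**Figure D3:**
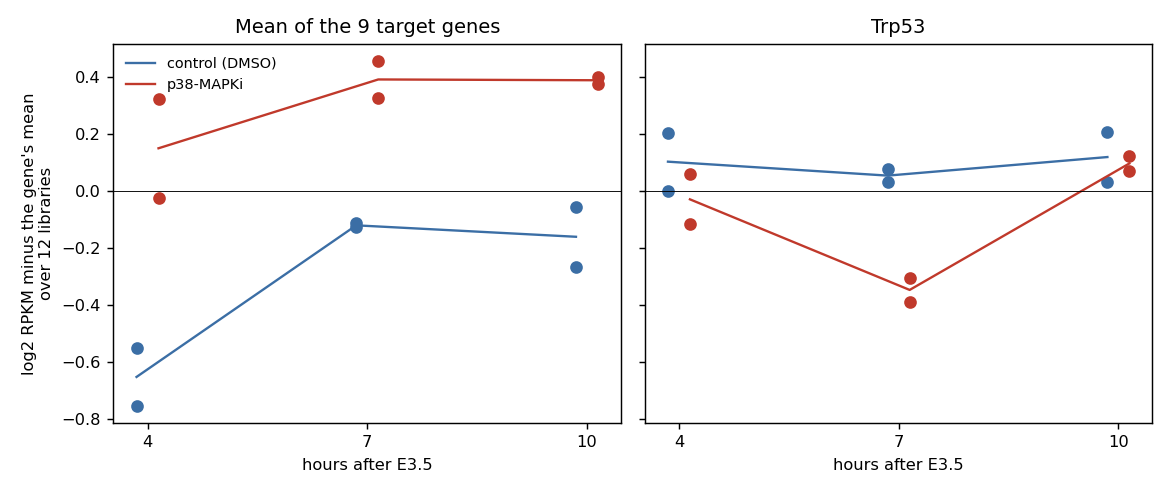
Log2 RPKM minus each gene's mean over 12 libraries against hours after E3.5, averaged over the 9 target genes (left) and for Trp53 (right), with control (DMSO) in blue and p38-MAPKi in red, points for libraries and lines through the means of 2. The targets run from -0.75 to 0.46 and the red points lie above the blue points of their own time, while Trp53 runs from -0.39 to 0.21.

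A wider list of 48 p53 target genes beyond the members was read in the same way, of which 45 were tested. At E3.5 + 4 h 37 of 45 had a log2 fold change above 0, with a median of 0.28 against 0.07 for all genes, at + 7 h 24 of 45 with a median of 0.05 against -0.14, and at + 10 h 34 of 45 with a median of 0.17 against -0.02. Above 0 over all genes were 60%, 40.1% and 45.7%. By limma 0 of 45 were called at E3.5 + 4 h, where 11 were higher and 0 lower at an unadjusted p under 0.05, against 6.39% and 3.03% of all genes. Called at + 7 h were also 0, with 7 higher and 3 lower at that p, against 10.7% and 17.7% of all genes, and at + 10 h 18 were higher and 4 lower, against 8.26% and 11.6%. At E3.5 + 10 h 1 was called, Psrc1, a microtubule-associated protein, which was at 64.9 and 67.5 RPKM with p38-MAPKi and 47.8 and 49.3 RPKM in controls, a log2 fold change of 0.45 ± 0.06 (adjusted p = 0.0445). The call was lost without the variance trend, without a filter and with 12 libraries in one fit, and it was absent without control library 2 or without either p38-MAPKi library of that time, and without control library 1 4 genes were called. Gdf15, a secreted stress cytokine, had the highest mean fold change of the list, with 2.40 and 1.499 RPKM against 0.632 and 0.503 RPKM at E3.5 + 4 h, 2.35 and 3.16 against 0.742 and 1.11 RPKM at + 7 h, and 1.202 and 1.43 against 1.53 and 1.02 RPKM at + 10 h. Its groups were apart at the first 2 times and overlapped at the last, and its log2 fold changes of 1.75 ± 0.52, 1.59 ± 0.44 and 0.07 ± 0.30 were not called. Both controls at E3.5 + 4 h and 1 control at + 7 h were below 1 RPKM. Gdf15 thus passed the filter at these times only through its p38-MAPKi libraries, and its fold changes there are a description with no p-value. Ak1, an adenylate kinase, gave 0.60, 0.65 and 0.73, and Gadd45a, a stress sensor of DNA damage, gave 0.76, 0.86 and 0.15, none of them called. At the low end Polh, a translesion DNA polymerase, gave 0.00, -1.37 ± 0.58 and -0.20, Plk3 gave 0.19, -0.35 and -0.54, and Rrm2b, a ribonucleotide reductase subunit, gave -0.18, -0.55 and 0.09, none called. Polh was at 0.623 and 2.37 RPKM with p38-MAPKi against 3.39 and 2.92 RPKM in controls at E3.5 + 7 h. The lowest of these values came from the library with the fewest reads. In control embryos 40 of the 44 listed targets tested were higher at E3.5 + 7 h than at + 4 h, with a median of 0.23 against 0.11 for all genes, of which 76.6% were higher, and 0 were called (6 higher at an unadjusted p under 0.05, against 3.94% of all genes).

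Of 25 listed genes that regulate p53 or are related to it, 23 were tested, and 8, 4 and 9 of them were above 0 at the 3 times, with medians of -0.07, -0.44 and -0.08, against 0.07, -0.14 and -0.02 for all genes. The median at E3.5 + 4 h ran from -0.214 to 0.0802 when single libraries were left out, above 0 without control library 2 or p38-MAPKi library 2, and was also above 0, at 0.05, with a filter of 10 RPKM. That at E3.5 + 7 h was -0.24 after median centring, -0.29 with a pseudocount of 1 and -0.12 with length correction. Trp53bp2, which encodes ASPP2, a cofactor that directs p53 to apoptotic genes, was the 1 regulator called at E3.5 + 4 h, as lower. It was at 21.3 and 13.8 RPKM with p38-MAPKi and 33.9 and 33.0 RPKM in controls, a log2 fold change of -0.96 ± 0.21. Trp53bp2 was listed with this fall known from earlier results of these data, so the fall is given as a description with no p-value. It was at 18.9 and 23.9 against 35.7 and 39.1 RPKM at E3.5 + 7 h (-0.82 ± 0.19, adjusted p = 0.0534) and at 29.0 and 28.0 against 34.8 and 32.3 RPKM at E3.5 + 10 h (-0.24 ± 0.07, adjusted p = 0.152). Its groups were apart each time, and without control library 1 or 2 or p38-MAPKi library 2 of E3.5 + 4 h the count of regulators called went from 1 to 0, whereas without p38-MAPKi library 1 it was 2. It was also 0 without the variance trend, after either scaling, without a filter, with 12 libraries in one fit and with length correction. The next lowest were Ep300, a histone acetyltransferase that coactivates p53 (-0.51, -0.999 and -0.11), and Atm, the kinase of double-strand breaks (-0.58, -0.90 and 0.05). The highest were Rpl11 (0.22, 0.86 and -0.12) and Rpl5 (0.22, 0.71 and -0.05), ribosomal proteins that can bind Mdm2, and Rchy1, a ubiquitin ligase for p53 (0.26, 0.44 and 0.21). None of these 5 was called at any time.

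Cell cycle genes that p53 lowers through p21 were taken as the last list, and all 20 were tested. Medians were 0.04 (-0.11 after quantile normalization and -0.06 with length correction), -0.37 (-0.17 after median centring) and -0.09, with 11, 3 and 7 genes above 0. The median at E3.5 + 4 h was also below 0 without control library 1 or without either p38-MAPKi library, down to -0.092, and that at E3.5 + 7 h was -0.17 without p38-MAPKi library 1. By limma 0 were called at each time. At an unadjusted p under 0.05 were 0 genes at E3.5 + 4 h, 1 higher and 7 lower at + 7 h, and 1 higher and 3 lower at + 10 h, where the shares of all genes given above for these times apply. Top2a, a topoisomerase of dividing cells, was at 28.0 and 22.2 against 28.7 and 34.3 RPKM at E3.5 + 4 h, 14.7 and 20.9 against 28.2 and 36.5 RPKM at + 7 h, and 43.4 and 38.8 against 37.98 and 41.5 RPKM at + 10 h. Both p38-MAPKi libraries were below both controls at the first 2 times, narrowly at E3.5 + 4 h, and the groups overlapped at E3.5 + 10 h. Cdk1, the mitotic kinase, gave log2 fold changes of -0.20, -0.49 and -0.34, and Prc1, a protein of the spindle midzone, gave -0.18, -0.76 and 0.02. At the upper end Cenpa, the centromeric histone, gave 0.34, 0.02 and 0.05, Birc5, which encodes survivin, gave 0.10, 0.49 and -0.22, and Cdc20, an activator of the anaphase-promoting complex, gave 0.31, 0.07 and -0.07.

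**Figure D4:**
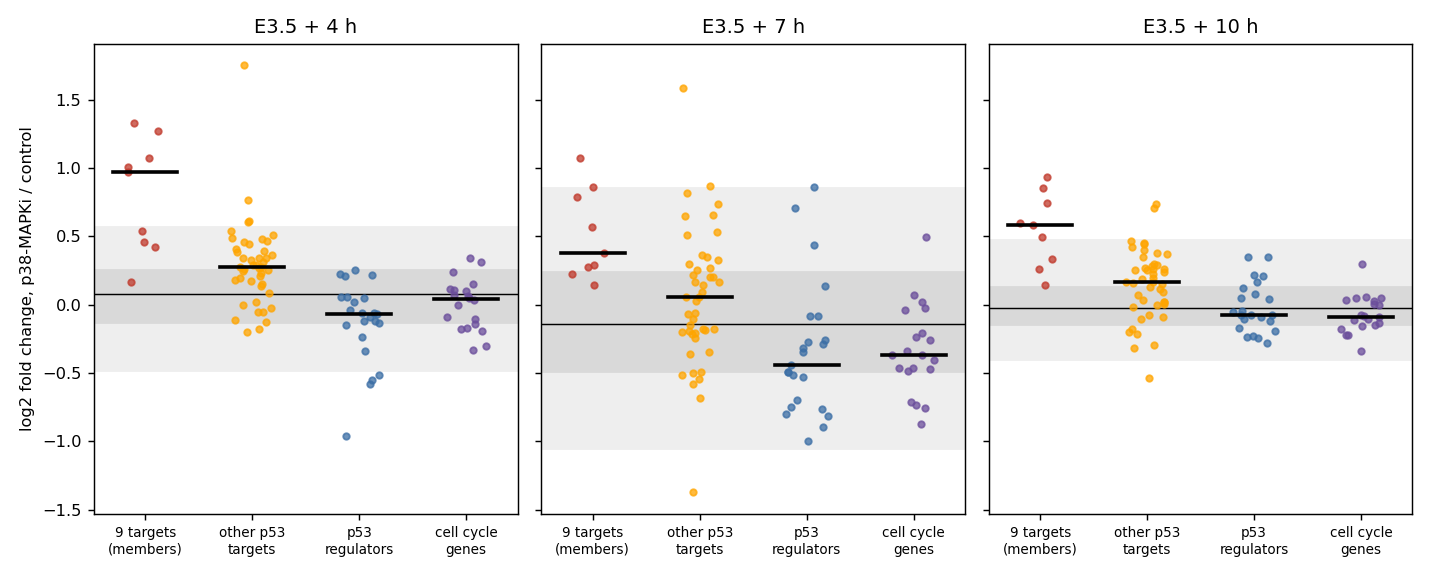
Log2 fold change of p38-MAPKi over control at the 3 times for the 9 target genes (red), the other p53 targets (orange), the regulators (blue) and the cell cycle genes (purple), with 1 point per gene and a black bar at each median. Grey bands span the middle 50% and 90% of all genes tested and the thin line is their median, and the medians of the other p53 targets, 0.28, 0.05 and 0.17, lie above that line while those of regulators and cell cycle genes lie below it at each time.

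Genes outside the 10 were ranked by how closely their centred log2 levels followed the mean course of the 9 targets over the 12 libraries, among 9378 genes with at least 1 RPKM in each. The nearest was Ercc5, a nuclease of nucleotide excision repair, with a root mean square difference of 0.09, followed by Rap2a, a small GTPase (0.12), Traf3ip2, an adaptor of interleukin receptors (0.14), Zbtb8a (0.16) and Tctn1, a protein of the ciliary transition zone (0.16). The members themselves differed from their mean by 0.15 (Bbc3) to 0.27 (Phlda3), and Trp53 by 0.47. The libraries are those that chose the members, and the likeness is a description over 12 libraries that share their culture and processing.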

How the data were processed

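The authors deposited log2 RPKM per gene for the 12 libraries. Per the labels and the study's methods, single-end reads of a directional library kit went through Trim Galore 0.4.1 and then HISAT2 2.0.5 (genome build GRCm38), and SeqMonk made the gene values. The strand option and the handling of reads that map to several places were not given in the sources used here. RPKM divides by transcript length and by library size, so a shift in abundant RNA moves all other genes. Genes without reads carry a value equal to 0.9 read, which gave each library's total, and with GENCODE M21 merged exons whole reads (within 0.01) followed for 9 members, and by a search over lengths for Cdkn1a.

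Because the unit is a log2 value, no count test was run. Here limma 3.58.1 in R 4.3.3 (lmFit, eBayes with the trend) was fitted to the deposited values without a pseudocount, for genes with at least 1 RPKM in 2 libraries of the comparison, with the 4 libraries of a contrast or the 8 of an interaction, and p-values adjusted by Benjamini and Hochberg over all genes at a threshold of 0.05. The script was tested on simulated data. Tables and figures were made with Python 3.11.15, pandas 2.3.3 and matplotlib 3.10.9.

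The members and lists were chosen with earlier results of these data known. Named were all 10 members and, of each list, every gene called and the 3 highest and 3 lowest by mean p38-MAPKi fold change, and the 5 genes nearest in profile to Phlda3, to Trp53 and to the mean of the 9 targets. Listed genes below the filter in a comparison were not tested in it, among them Gdf15 in control embryos at 7 against 4 h. Alternatives were the variance trend, median centring, quantile normalization, the filter, pseudocounts of 1 and 0.1, a fit of 12 libraries, a replicate block, removal of a trend on transcript length, a threshold of 0.1, and leaving out each library. Sequences are from RefSeq on GRCm38.p6.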

Additional observations from a re-analysis of the deposited data

How the results depend on the processing

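The number of the 10 genes called was 5, 2 and 3 for p38-MAPKi against control after 4, 7 and 10 h, and 2 and 1 for control embryos at 7 and 10 h against 4 h. In that order it was 0 throughout without limma's variance trend (6, 4, 7, 5 and 5 genes at an unadjusted p under 0.05). It was 0, 0, 3, 0 and 0 after median centring (7, 8, 5 and 6 at an unadjusted p under 0.05 where 0) and 0, 0, 4, 0 and 0 after quantile normalization (6, 5, 7 and 7). It was 0, 2, 0, 0 and 0 without a filter (6, 8, 6 and 6), 0, 6, 0, 0 and 0 with 12 libraries in one fit (7, 7, 7 and 7), and 0, 0, 5, 0 and 0 with the trend on transcript length removed (8, 8, 6 and 5). At E3.5 + 4 h median centring, quantile normalization, the fit of 12 libraries and the length correction called 0 of all genes, against 98 as reported, and at E3.5 + 7 h median centring moved the median of all genes from -0.14 to 0.05. Over all genes, calls at E3.5 + 7 h went from 233 to 1236 without a filter and 947 at 10 RPKM. They were 2586 with 12 libraries in one fit and 2023 with the replicate block. Those at E3.5 + 10 h went from 88 to 166 at 10 RPKM, 120 with length correction and 410 with the replicate block. In controls at 10 against 4 h they went from 51 to 276 at 10 RPKM and 536 with the replicate block. The count of the 10 genes was 4, 4, 5, 1 and 4 at a filter of 10 RPKM, and 4, 7 and 2 with a threshold of 0.1 for p38-MAPKi at 7 and 10 h and for control embryos at 10 against 4 h. With the replicate block it was 5, 4, 6, 0 and 4. Leaving out single libraries gave 0 to 5, 0 to 3, 2 to 6, 0 to 1 and 0 to 5, and 0 to 1 in place of 0 for the difference of the effects at 10 and 7 h. The cause was not tested. The replicate numbers share only a number, since the labels give no common batch, and the deviations of same-numbered libraries correlated at -0.0124, 0.162 and 0.167 at the 3 times. For the other p53 targets, 0 calls at E3.5 + 4 h became 1 with a pseudocount of 1 and 0 to 1 without single libraries. Their 0 calls at + 7 h became 4 without a filter, 3 at 10 RPKM, 6 in the fit of 12 libraries, 8 with the replicate block and 0 to 8 without single libraries. Their 1 call at + 10 h became 0 without the trend, without a filter or with 12 libraries, 2 after quantile normalization or length correction, 4 at 10 RPKM or with the replicate block, and 0 to 4 without single libraries. In controls at 10 against 4 h it was 7 at 10 RPKM, 5 with the replicate block and 0 to 11 without single libraries, and 0 to 1 at 10 against 7 h. The 1 regulator called at E3.5 + 4 h was lost, at 0, without the trend, after median centring or quantile normalization, without a filter, with 12 libraries and with length correction, and 0 to 2 were called without single libraries. At + 7 h 0 regulators and 0 cell cycle genes became 3 and 1 without a filter, 3 and 3 at 10 RPKM, 10 and 7 with 12 libraries, 6 and 5 with the replicate block, and 0 to 9 and 0 to 7 without single libraries, and 2 regulators with a pseudocount of 1. In controls at 10 against 4 h leaving out single libraries gave 0 to 2 regulators and 0 to 3 cell cycle genes. The median of the other p53 targets moved from 0.28 to 0.17 with length correction and 0.16 to 0.38 without single libraries at + 4 h, and from 0.05 to 0.25 after median centring and 0.17 at 10 RPKM at + 7 h. That of regulators was -0.214 to 0.0802 without single libraries at + 4 h, and moved from -0.44 at + 7 h to -0.24 after median centring, -0.29 with a pseudocount of 1 and -0.12 with length correction. That of cell cycle genes was -0.11 after quantile normalization and -0.092 to 0.133 without single libraries at + 4 h, and moved from -0.37 at + 7 h to -0.17 after median centring and -0.50 to -0.17 without single libraries. No called value turned its direction, and 409 other checks of these counts and medians were rated the same. For counts that meant staying within 1.5 times. For medians it meant moving by less than the list's spread between replicates, so that a median near 0 could still turn its sign. The members had 343 reads or more in every library, and each group had 2 pools.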

Other observations

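The genes nearest to single members in their centred log2 levels over the 12 libraries were also read. Phlda3 was nearest to Pmvk, a kinase of the mevalonate pathway (root mean square difference 0.18), then Zfp688 (0.20), 1700007K13Rik (0.20), Sdhaf1, an assembly factor of succinate dehydrogenase (0.20), and Mt2, a metallothionein (0.20), where the centred profile of Phlda3 itself had a root mean square of 0.52. Trp53 was nearest to Smarca5, a chromatin remodelling ATPase (0.06), then Hells (0.06), Tmed7 (0.06), Btrc (0.06) and Matr3 (0.07), beside its own root mean square of 0.18. A gene with small deviations is near any flat profile, so the distances for Trp53 and Phlda3 are not on a common footing.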
